A study of Homo sapiens with 3 samples.

Results

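The 39 genes of the human HOX clusters were examined in HEK293T, a transformed line of human embryonic kidney origin that takes up nucleic acid readily. They were chosen by name, as every row of the deposited gene table called HOX followed by the cluster letter A, B, C or D and a number, and made up 39 of the 23284 genes in that table. Of the 39 genes, 11 belonged to HOXA, 10 to HOXB, 9 to HOXC and 9 to HOXD. Polyadenylated RNA had been sequenced from cells transfected with ESRP2 siRNA, Arkadia siRNA or negative control siRNA, all without TGF-beta and harvested 48 h after seeding, with 1 library for each siRNA. ESRP2 is an epithelial splicing regulator, and Arkadia, encoded by RNF111, is a ubiquitin ligase of the TGF-beta pathway. How many siRNA sequences stood behind each label is not given in the labels. With 1 library per siRNA there was no replicate spread and no test, so every difference below is a difference between libraries, and an effect of an siRNA cannot be told apart from the library it was measured in. In such bulk RNA, fewer cells that express a gene and less RNA per cell cannot be told apart either.

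HOX genes encode transcription factors with a homeodomain, a DNA-binding fold, and lie side by side in 4 clusters that arose by duplication of an ancestral one. Genes at the same place in different clusters form a paralog group, numbered from 1 at the anterior end to 13 at the posterior end. In the embryo the genes are switched on in that order along the head-to-tail axis, Polycomb proteins hold silent ones off, trithorax proteins keep active ones on, and the products bind DNA together with PBX and MEIS cofactors. Kidney development in the mouse needs the paralogs of group 11, and fibroblasts from different body sites keep different HOX patterns in culture.

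The siRNA targets and the cell type were checked first. RNF111 had 7.65 FPKM (fragments scaled to transcript length and to library size) with ESRP2 siRNA, 1.15 with Arkadia siRNA and 6.38 with control siRNA. ESRP2 had 4.27 FPKM with ESRP2, 21.2 with Arkadia and 14.8 with control siRNA, so each target was lowest in the library named for it. VIM, an intermediate filament gene active in these cells, had 301 FPKM with ESRP2 siRNA, 410.4 with Arkadia siRNA and 389 with control siRNA. VIM was 1 of 7 genes listed for this cell type. PAX2 had 0.835 FPKM with ESRP2, 2.13 with Arkadia and 2.13 with control siRNA. KRT8 had 7.10 FPKM with ESRP2, 9.20 with Arkadia and 5.91 with control siRNA, with the authors' lower bound at 0 in each library. NEFM and PAX2 were lower than control by at least 1.5-fold with ESRP2 siRNA, and 0 of the 7 passed 1.5-fold with Arkadia siRNA. KRT18, ENO2 and NEFL had at least 10 FPKM in each library. The defining markers of 16 other cell types summed to 3.65 FPKM with ESRP2, 4.63 with Arkadia and 4.86 with control siRNA. Of these 16, 3 were at 0 with ESRP2 siRNA, 4 with Arkadia siRNA and 1 with control siRNA. Low FPKM values fell on whole reads, from which the size of each library on the authors' scale was 13420000 reads with ESRP2 siRNA, 9740000 with Arkadia siRNA and 12930000 with control siRNA.

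Most HOX genes were present in these cells. An FPKM of at least 1 was reached by 35 of 39 members with ESRP2 siRNA (89.7%), 34 with Arkadia siRNA (87.2%) and 35 with control siRNA (89.7%), against 50.7% of all genes with ESRP2 siRNA, 50.8% with Arkadia siRNA and 51.0% with control siRNA. Levels were moderate, with a median over the 39 members of 6.70 FPKM with ESRP2 siRNA, 10.5 with Arkadia siRNA and 10.2 with control siRNA. The median of all 11870 genes compared (an average of at least 1 FPKM and a transcript of at least 300 nt) was 12.1 FPKM with ESRP2, 10.5 with Arkadia and 11.0 with control siRNA. This filter leaves out 4 of the 39 members, all low. The medians over 39 members are lower for including them and are not over a like set. An FPKM of at least 10 was reached by 16 members with ESRP2 siRNA, 20 with Arkadia siRNA and 20 with control siRNA. Reads could be recovered for the 25 members that had 1 isoform and shared their locus with no other gene, and all 75 of these values lay within 0.05 of a whole read. Across the 35 members compared, the authors' interval around a value extended a median of 53.4% of the FPKM to either side. Counting error alone was 12.8% for those whose reads could be recovered.

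**Figure D1:**
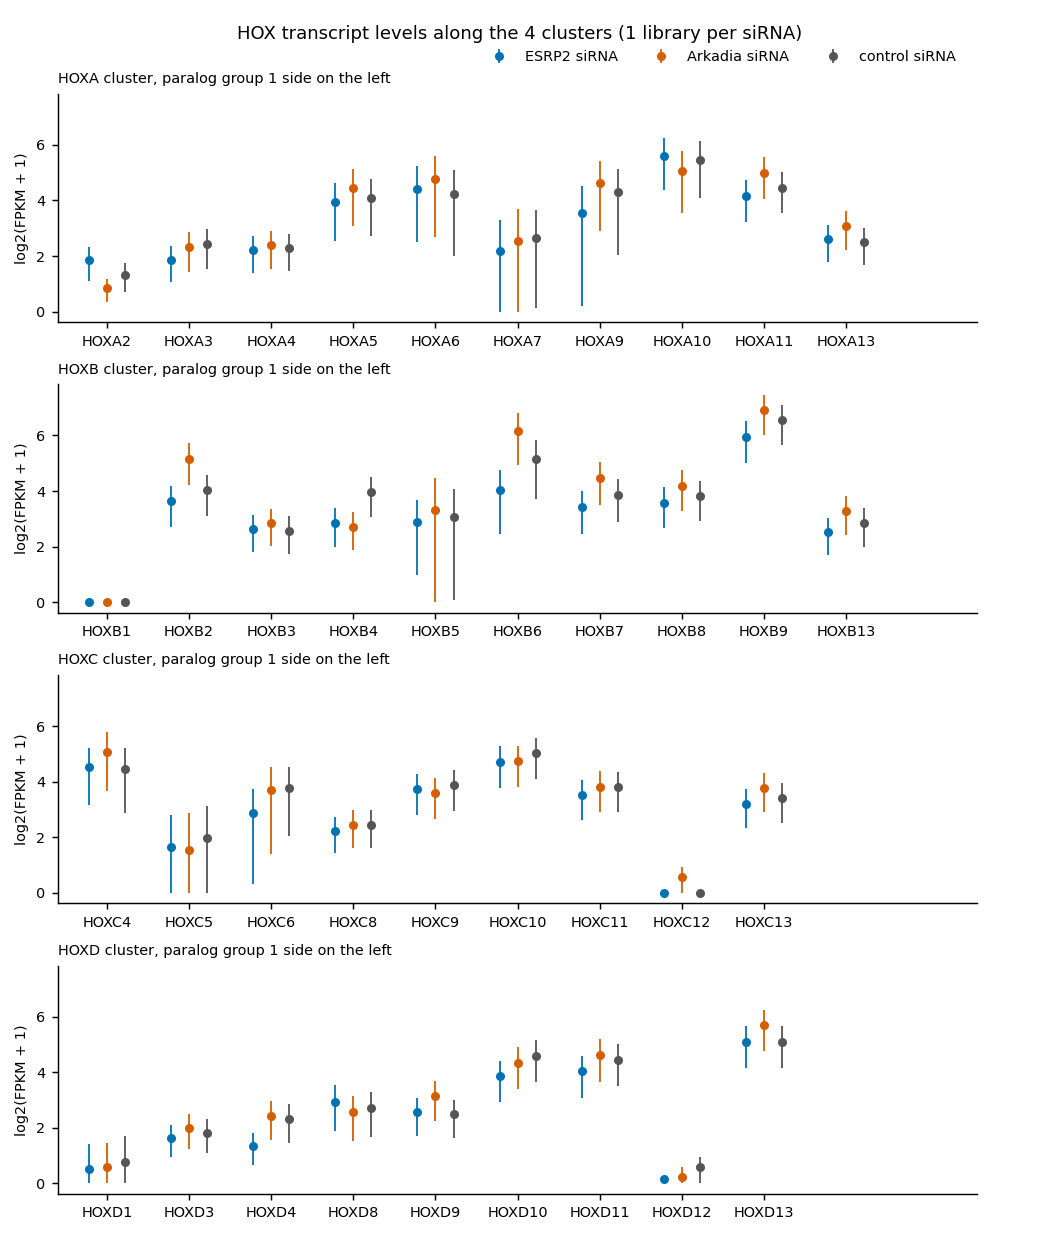
Log2(FPKM + 1) of 38 HOX genes on the vertical axis, by cluster and from paralog group 1 on the left, for the libraries with ESRP2 siRNA (blue), Arkadia siRNA (orange) and control siRNA (grey); bars are the authors' intervals. HOXB9 was highest in each library, HOXB1 stayed at 0, and bars were longest for genes that share a locus, such as HOXA7 and HOXB5.

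The HOXA cluster lay on chromosome 7 (build hg19, coordinates of the deposited table). Its anterior genes were low. HOXA2, which patterns the second pharyngeal arch, had 2.60 FPKM with ESRP2 siRNA (55 reads), 0.781 with Arkadia siRNA (12 reads) and 1.47 with control siRNA (30 reads), and was the member with the fewest reads among those compared. HOXA3, needed for the thymus and parathyroid in the mouse, had 2.64 FPKM with ESRP2, 3.96 with Arkadia and 4.35 with control siRNA. HOXA4 had 3.66 FPKM with ESRP2, 4.23 with Arkadia and 3.85 with control siRNA. The authors' intervals of these 3 genes overlapped between all libraries.

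Central HOXA genes were in part measured together. HOXA5, HOXA6 and HOXA7 share a locus (chr7:27179983-27196296) with the antisense gene HOXA-AS3, so the division of reads between them was estimated by the authors' software. HOXA5, a regulator of lung development in the mouse, had 14.2 FPKM with ESRP2 siRNA, 20.6 with Arkadia siRNA and 16.0 with control siRNA. HOXA6 had 20.6 FPKM with ESRP2, 26.3 with Arkadia and 18.0 with control siRNA. HOXA7, beside it, had 3.57 FPKM with ESRP2, 4.79 with Arkadia and 5.27 with control siRNA, with lower interval bounds at 0 with ESRP2 and Arkadia siRNA and 0.0925 with control siRNA.

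At the posterior end HOXA10 led. This gene, which patterns the uterus, had 47.0 FPKM with ESRP2 siRNA, 32.4 with Arkadia siRNA and 43.1 with control siRNA. HOXA9, a regulator of blood stem cells and a leukaemia gene, had 10.7 FPKM with ESRP2, 24.0 with Arkadia and 18.8 with control siRNA. Both share a locus (chr7:27202057-27219880) with the readthrough gene HOXA10-HOXA9 and MIR196B, so their values are uncertain. HOXA11, a kidney and forearm gene in the mouse (chr7:27220776-27224835), had 17.0 FPKM with ESRP2 (559 reads), 31.0 with Arkadia (741 reads) and 21.1 with control siRNA (669 reads). HOXA13, mutated in hand-foot-genital syndrome, had 5.12 FPKM with ESRP2, 7.41 with Arkadia and 4.68 with control siRNA.

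The HOXB cluster on chromosome 17 held both the highest and the lowest member. HOXB9, a posterior gene that also acts in the mouse mammary gland (chr17:46698519-46703835), had 60.8 FPKM with ESRP2 siRNA (2038 reads), 119.5 with Arkadia siRNA (2910 reads) and 93.1 with control siRNA (3008 reads). It ranked at place 1708 of all genes with ESRP2 siRNA, 787 with Arkadia siRNA and 945 with control siRNA. HOXB1, the gene that sets the identity of rhombomere 4 in the hindbrain, had 0 reads in each library. A count of 0 allows up to 3 reads, or 0.275 FPKM with ESRP2 siRNA, 0.379 with Arkadia siRNA and 0.285 with control siRNA, counting error only.

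HOXB2, a direct target of HOXB1 in the hindbrain (chr17:46620019-46622393), had 11.4 FPKM with ESRP2 siRNA (215 reads), 34.8 with Arkadia siRNA (475 reads) and 15.2 with control siRNA (276 reads). The library with Arkadia siRNA was the high one. HOXB3 had 5.21 FPKM with ESRP2, 6.13 with Arkadia and 4.93 with control siRNA. HOXB4, known for expanding blood stem cells (chr17:46652869-46655743), had 6.18 FPKM with ESRP2 (152 reads), 5.60 with Arkadia (100 reads) and 14.7 with control siRNA (348 reads), and here the control library stood apart from both knockdown libraries. HOXB5 had 6.44 FPKM with ESRP2, 8.87 with Arkadia and 7.40 with control siRNA. HOXB6 had 15.2 FPKM with ESRP2, 69.9 with Arkadia and 34.5 with control siRNA. Both share a locus (chr17:46667823-46683774) with the antisense gene HOXB-AS3. HOXB7, linked to proliferation in several tumours, had 9.78 FPKM with ESRP2 (153 reads), 21.3 with Arkadia (242 reads) and 13.5 with control siRNA (204 reads). HOXB8 had 11.0 FPKM with ESRP2, 17.3 with Arkadia and 13.2 with control siRNA. HOXB13, best known from the prostate, had 4.70 FPKM with ESRP2, 8.73 with Arkadia and 6.22 with control siRNA. In HOXB2, in HOXB5 to HOXB9 and in HOXB13 the order of the libraries was the same, with Arkadia siRNA highest and ESRP2 siRNA lowest.

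In the HOXC cluster on chromosome 12, HOXC4, HOXC5 and HOXC6 share a locus (chr12:54410642-54449814) with MIR615. HOXC4, expressed in lymphoid cells, had 22.1 FPKM with ESRP2 siRNA, 32.7 with Arkadia siRNA and 21.1 with control siRNA. HOXC5 had 2.14 FPKM with ESRP2, 1.89 with Arkadia and 2.88 with control siRNA, with lower bounds at 0 in each library. HOXC6 had 6.26 FPKM with ESRP2, 11.9 with Arkadia and 12.7 with control siRNA. Among these HOXC4 was high with Arkadia siRNA and HOXC6 low with ESRP2 siRNA. HOXC8 had 3.68 FPKM with ESRP2, 4.48 with Arkadia and 4.48 with control siRNA. HOXC9, which sets thoracic motor neuron identity in vertebrate embryos, had 12.2 FPKM with ESRP2, 11.0 with Arkadia and 13.6 with control siRNA. HOXC10, its lumbar counterpart, had 25.1 FPKM with ESRP2, 25.6 with Arkadia and 31.5 with control siRNA. HOXC11 had 10.3 FPKM with ESRP2, 13.1 with Arkadia and 12.9 with control siRNA. From HOXC8 to HOXC11 no library stood far from the others. HOXC13, a hair and nail gene, had 8.21 FPKM with ESRP2, 12.7 with Arkadia and 9.51 with control siRNA. HOXC12 had 0 reads with ESRP2 siRNA, 3 with Arkadia siRNA and 0 with control siRNA, at or under the floor of 3 reads throughout.

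In the HOXD cluster on chromosome 2, HOXD10, HOXD11 and HOXD13 were the highest genes. HOXD1 had 0.420 FPKM with ESRP2 siRNA, 0.521 with Arkadia siRNA and 0.697 with control siRNA, in a locus shared with HOXD-AS1. HOXD3 had 2.09 FPKM with ESRP2, 2.98 with Arkadia and 2.54 with control siRNA. HOXD4 (chr2:177016113-177017949) had 1.56 FPKM with ESRP2 (23 reads), 4.41 with Arkadia (47 reads) and 4.02 with control siRNA (57 reads), and the library with ESRP2 siRNA was the low one. HOXD8 had 6.70 FPKM with ESRP2, 4.87 with Arkadia and 5.50 with control siRNA. HOXD9, which acts in limb and spinal cord, had 4.87 FPKM with ESRP2, 7.80 with Arkadia and 4.59 with control siRNA, so Arkadia siRNA gave the high value. HOXD10, a limb and motor neuron gene (chr2:176981492-176984670), had 13.6 FPKM with ESRP2 (292 reads), 19.2 with Arkadia (300 reads) and 23.0 with control siRNA (476 reads). HOXD11, which acts beside HOXA11 in the mouse kidney and forearm, had 15.5 FPKM with ESRP2, 23.5 with Arkadia and 21.0 with control siRNA. HOXD13, mutated in synpolydactyly (chr2:176957532-176960666), had 33.0 FPKM with ESRP2 (941 reads), 50.6 with Arkadia (1047 reads) and 33.4 with control siRNA (918 reads). HOXD12, between HOXD11 and HOXD13, had 1 read with ESRP2 siRNA, 1 with Arkadia siRNA and 4 with control siRNA.

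Added up over the 39 genes, HOX transcripts came to 433.6 FPKM with ESRP2 siRNA, 686 with Arkadia siRNA and 553.4 with control siRNA. The HOXB cluster differed most, with 130.7 FPKM with ESRP2 siRNA, 292.2 with Arkadia siRNA and 202.7 with control siRNA. Its share of the sum was 30.1% with ESRP2 siRNA, 42.6% with Arkadia siRNA and 36.6% with control siRNA. HOXA summed to 135.1 FPKM with ESRP2, 166.0 with Arkadia and 146.8 with control siRNA. HOXC summed to 90.1 FPKM with ESRP2, 113.7 with Arkadia and 108.7 with control siRNA. The HOXD sum was 77.8 FPKM with ESRP2, 114.0 with Arkadia and 95.2 with control siRNA. HOXB was thus 2.24 times as high with Arkadia siRNA as with ESRP2 siRNA, against 1.23 times for HOXA, 1.26 times for HOXC and 1.47 times for HOXD. Within HOXB the same ratio ran from 0.907 for HOXB4 and 1.18 for HOXB3 to 4.59 for HOXB6, whose locus is shared. HOXB9, the highest member, had 1.97.

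Posterior genes (paralog groups 9 to 13, 16 members) carried most of the sum, with 61.8% with ESRP2 siRNA, 56.4% with Arkadia siRNA and 60.9% with control siRNA. Central genes (groups 4 to 8, 15 members) carried 30.7% with ESRP2 siRNA, 34.9% with Arkadia siRNA and 32.0% with control siRNA. Anterior genes (groups 1 to 3, 8 members) carried 7.48% with ESRP2 siRNA, 8.70% with Arkadia siRNA and 7.12% with control siRNA. Group 9 was the highest paralog group, at 88.5 FPKM with ESRP2, 162.3 with Arkadia and 130.1 with control siRNA. Group 12 was the lowest, at 0.122 FPKM with ESRP2, 0.643 with Arkadia and 0.505 with control siRNA. Within clusters the level climbed with the paralog group in HOXA and HOXD, less so in HOXB and not in HOXC. Spearman's rho between FPKM and paralog group was 0.50 with ESRP2 siRNA, 0.59 with Arkadia siRNA and 0.56 with control siRNA over the 11 HOXA genes. Over the 10 HOXB genes it was 0.32 with ESRP2 siRNA, 0.45 with Arkadia siRNA and 0.30 with control siRNA, and over the 9 HOXC genes -0.08 with ESRP2 siRNA, -0.10 with Arkadia siRNA and -0.18 with control siRNA. The 9 HOXD genes gave 0.50 with ESRP2 siRNA, 0.53 with Arkadia siRNA and 0.50 with control siRNA. These are descriptions across genes of the same library, which are not independent replicates.

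**Figure D2:**
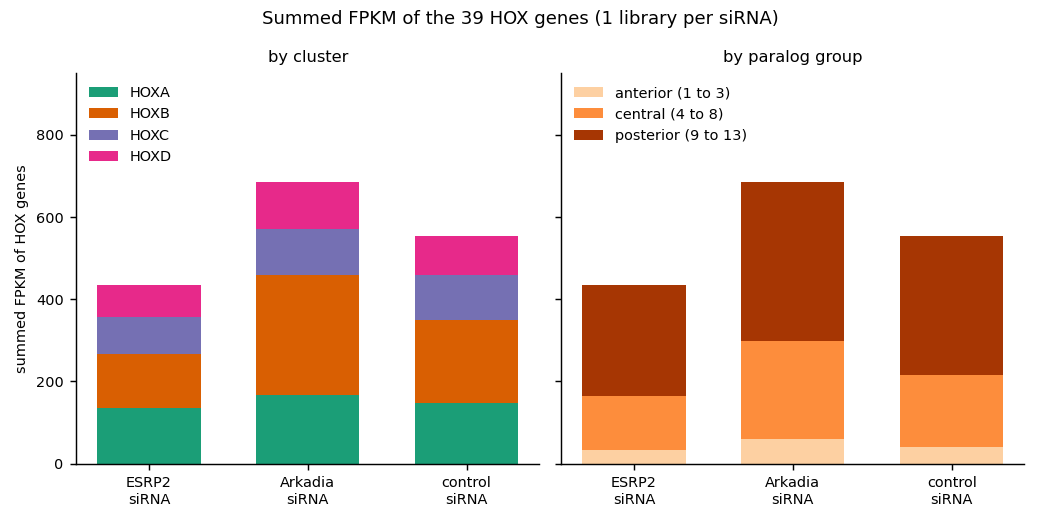
Summed FPKM of the 39 HOX genes in each siRNA library, stacked by cluster on the left and by paralog group on the right; each bar is 1 library and there are no error bars. The sum was 433.6 with ESRP2 siRNA, 686 with Arkadia siRNA and 553.4 with control siRNA, and the HOXB part varied most.

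The first comparison, ESRP2 siRNA over control siRNA, sets HOX levels in the library with ESRP2 siRNA against those in the control library. HOX genes leaned lower. Of the 35 members compared, 0 were higher and 7 (20.0%) were lower by at least 1.5-fold on the log2(FPKM + 1) scale, where 19.9% of all genes were higher and 11.4% were lower. The call is one of size only and understates the change of low genes. HOXB6 and HOXB4 both had a log2 ratio of -1.13, HOXD4 of -0.97, HOXC6 of -0.92, HOXA9 of -0.77, HOXD10 of -0.72 and HOXB9 of -0.61, and HOXA3 stood just outside at -0.56. Only HOXB6 and HOXB4 passed 2-fold, which 7.87% of all genes did in either direction. At the other end HOXA2 had 0.54.

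The median log2 ratio of the members was -0.29, against 0.12 over all genes compared, and 27 of the 35 were below 0. In HOXB 8 of 9 members were below 0, in HOXC 7 of 8, in HOXA 7 of 11 and in HOXD 5 of 7. After the median of genes of like GC content was subtracted, 24 of the 35 were below 0. By cluster these were 8 in HOXB, 6 in HOXC, 7 in HOXA and 3 in HOXD, where 4 were then above 0. No share of all genes below or above 0 is given beside such counts, here or in the comparisons that follow. No member's intervals were separate in these libraries, which held for 0.868% of all genes upward and 0.413% downward. By counting error alone, 1 of the 22 compared members with recovered reads had a ratio whose 95% interval lay wholly above 1 (45.0% of such genes) and 12 had one wholly below 1 (29.1%). HOXB4 had a ratio of FPKM of 0.421 (0.345 to 0.511), HOXD4 of 0.389 (0.229 to 0.641), HOXD10 of 0.591 (0.509 to 0.685) and HOXB9 of 0.653 (0.617 to 0.691), with exact counting intervals that leave out any spread between cultures.

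**Figure D3:**
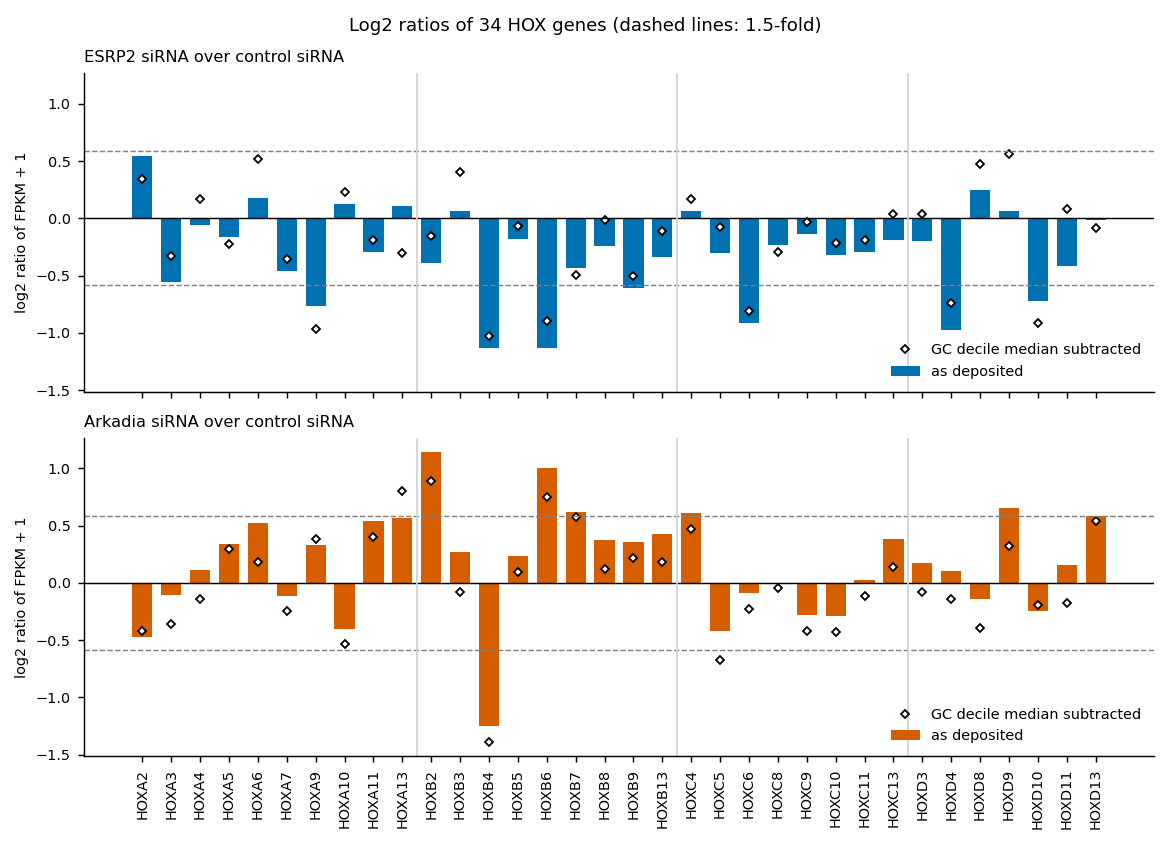
Log2 ratio of FPKM + 1 of 34 of the 35 HOX genes compared, ESRP2 siRNA over control siRNA above and Arkadia siRNA over control siRNA below, as deposited (bars) and after the median of genes of like GC content was subtracted (diamonds); dashed lines mark 1.5-fold. With ESRP2 siRNA 7 bars pass the lower line, and with Arkadia siRNA 5 pass the upper line and HOXB4 the lower one.

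In the second comparison, Arkadia siRNA over control siRNA, 5 of the 35 members (14.3%) were higher and 1 (2.86%) was lower by at least 1.5-fold, where 9.81% of all genes were higher and 11.8% were lower. HOXB2 had a log2 ratio of 1.14, HOXB6 of 0.999, HOXD9 of 0.65, HOXB7 of 0.62 and HOXC4 of 0.61, with HOXD13 just outside at 0.58. HOXB4 was the lower one at -1.25. At 2-fold on the log2(FPKM + 1) scale HOXB2 and HOXB4 were left, against 3.92% of all genes in either direction. HOXB6 lay just under that line, and its plain ratio of FPKM was 2.03. The median was 0.17, against -0.02 over all genes compared, and 23 members were above 0. In HOXB 8 of 9 members were above 0, with HOXB4 the exception, and in HOXC 3 of 8 were. After GC medians were subtracted, 17 of the 35 members were above 0 and 18 below, and in HOXB 7 of 9 were above.

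Again no member's intervals were separate, where 0.194% of all genes were higher and 0.244% lower with separate intervals. By counting error alone 11 of the 22 members with recovered reads had a ratio above 1 (30.4% of such genes) and 4 a ratio below 1 (34.3%). HOXB2 had a ratio of FPKM of 2.28 (1.97 to 2.66), HOXD13 of 1.51 (1.38 to 1.66) and HOXB4 of 0.382 (0.302 to 0.478). HOXB4 was low in both knockdown libraries, and these comparisons share the control library, so the same values describe a control library that was high for HOXB4.

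Set directly against each other, the knockdown libraries gave more calls than either gave against control, among HOX genes as among all genes. In Arkadia siRNA over ESRP2 siRNA, 12 of 35 members (34.3%) were higher and 1 (2.86%) was lower by at least 1.5-fold, where 21.2% of all genes were higher and 30.8% were lower. The intervals of HOXB6 and HOXB2 were separate, as were those of 1.90% of all genes on the higher side, and no member was lower with separate intervals, against 4.47% of all genes. HOXB6 had 69.9 FPKM (29.3 to 110.5) with Arkadia siRNA, against 15.2 (4.44 to 26.0) with ESRP2 siRNA, a log2 ratio of 2.13. HOXB2 had 34.8 FPKM (17.4 to 52.2) with Arkadia siRNA, against 11.4 (5.50 to 17.3) with ESRP2 siRNA, a log2 ratio of 1.53. Its ratio of FPKM was 3.04 (2.59 to 3.59 by counting error).

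The other members past 1.5-fold were HOXA9 at 1.10, HOXD4 at 1.08, HOXB7 at 1.05, HOXB9 at 0.96, HOXA11 at 0.83, HOXC6 at 0.82, HOXB13 at 0.77, HOXB8 at 0.61, HOXD13 at 0.60 and HOXD9 at 0.59. Of the 12 higher members 6 belonged to HOXB. HOXA2 was the lower one, at -1.01, with a ratio of FPKM of 0.301 (0.146 to 0.568 by counting error). The median was 0.46, against -0.14 over all genes compared, and 29 of 35 members were above 0. At 2-fold 5 members were higher and HOXA2 was lower, against 24.4% of all genes in either direction. By counting error alone 14 of the 22 members with recovered reads had a ratio above 1 (34.7% of such genes) and 1 a ratio below 1 (47.0%).

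The GC content of transcripts moved with all of these ratios. Across the genes compared, Spearman's rho between the log2 ratio and GC content was -0.64 with ESRP2 siRNA, 0.56 with Arkadia siRNA and 0.75 between the knockdowns. HOX transcripts were richer in GC, with a median of 55.7% against 49.3% for the genes compared. Across the 35 members rho was 0.10 with ESRP2 siRNA, 0.21 with Arkadia siRNA and 0.06 between the knockdowns. After the median of each GC decile was subtracted, 0 members were higher with ESRP2 siRNA (9.21% of all genes) and 6 were lower (7.70%), and the median of the family was -0.15. For Arkadia siRNA 3 were higher (6.35%) and 2 lower (7.00%) and the median was -0.044, on the other side of 0.

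The 6 lower members with ESRP2 siRNA after subtraction were HOXB4 at -1.02, HOXA9 at -0.96, HOXD10 at -0.92, HOXB6 at -0.90, HOXC6 at -0.81 and HOXD4 at -0.74. With Arkadia siRNA HOXB2 was at 0.89, HOXA13 at 0.80 and HOXB6 at 0.75, while HOXB4 was at -1.39 and HOXC5 at -0.67. Between the knockdowns 10 members were higher (12.4%) and 4 lower (14.1%), with HOXB6 at 1.65 and HOXB2 at 1.05 and a median of 0.14. The medians of the family were thus nearer to 0, and HOXB4 and HOXB6 with both siRNAs and HOXB2 with Arkadia siRNA stayed past 1.5-fold.

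**Figure D4:**
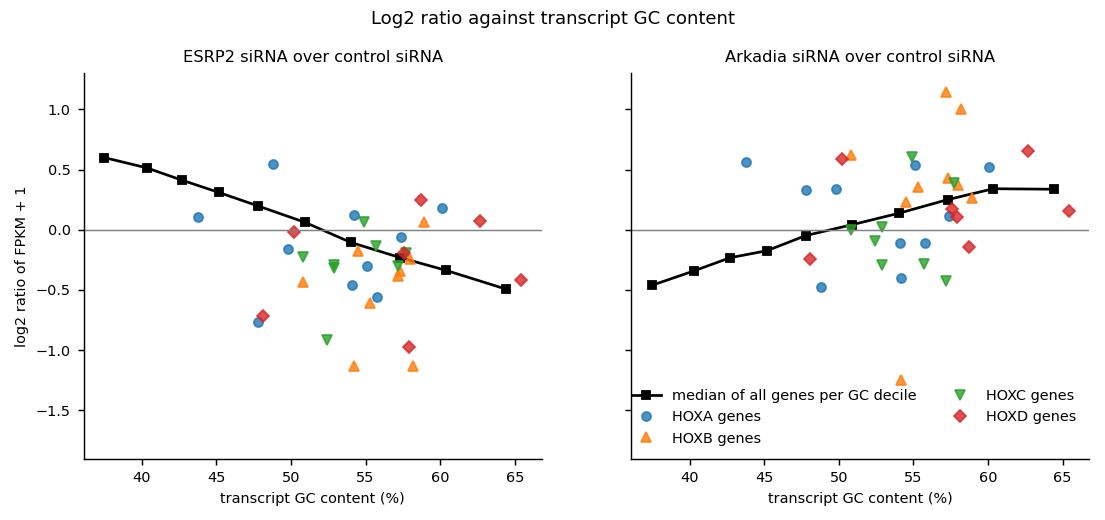
Log2 ratio of FPKM + 1 against transcript GC content in percent, ESRP2 siRNA over control siRNA on the left and Arkadia siRNA over control siRNA on the right; squares are medians of all genes per GC decile and coloured points are 34 HOX genes. The squares slope down on the left and up on the right, and HOXB4 (orange, 54.2% GC) lies far under the line in both panels.

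Isoform values came with wide intervals, which were separate between 2 libraries for 1 HOX isoform. The share of all isoforms with separate intervals was not counted, so whether 1 is unusual cannot be said. Of the 39 members 7 had more than 1 isoform. HOXA3 had an isoform of 3257 nt and one of 3396 nt that begins at another start. The shorter one had 0.0698 FPKM (0 to 0.357) with ESRP2 siRNA, 1.77 (0.329 to 3.24) with Arkadia siRNA and 3.79 (1.48 to 6.09) with control siRNA. Its share of HOXA3 was 2.65% with ESRP2 siRNA, 44.7% with Arkadia siRNA and 87.0% with control siRNA, and its intervals with ESRP2 siRNA and control siRNA were separate. The longer one had 2.57 FPKM (1.05 to 4.10) with ESRP2 siRNA, 2.19 (0.525 to 3.86) with Arkadia siRNA and 0.566 (0 to 1.52) with control siRNA, with intervals that overlapped.

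HOXA10 had a coding isoform of 2571 nt with 5.47% of its FPKM with ESRP2 siRNA, 12.4% with Arkadia siRNA and 19.0% with control siRNA. The rest lay in a non-coding one of 2199 nt, in a locus where reads are shared. The HOXC6 isoform of 1681 nt took 69.6% with ESRP2 siRNA, 80.8% with Arkadia siRNA and 88.2% with control siRNA. The HOXD8 isoform of 1608 nt took 90.3% with ESRP2 siRNA, 77.9% with Arkadia siRNA and 68.1% with control siRNA. The authors' intervals of these isoforms overlapped between the libraries. HOXC4, HOXC5 and HOXC6 each have 1 isoform from a start that the gene table's annotation treats as common to them, and these 3 of 6 isoforms made up 12.0% of the FPKM of the 3 genes with ESRP2 siRNA, 6.02% with Arkadia siRNA and 9.20% with control siRNA. The rest came from each gene's own start.

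**Figure D5:**
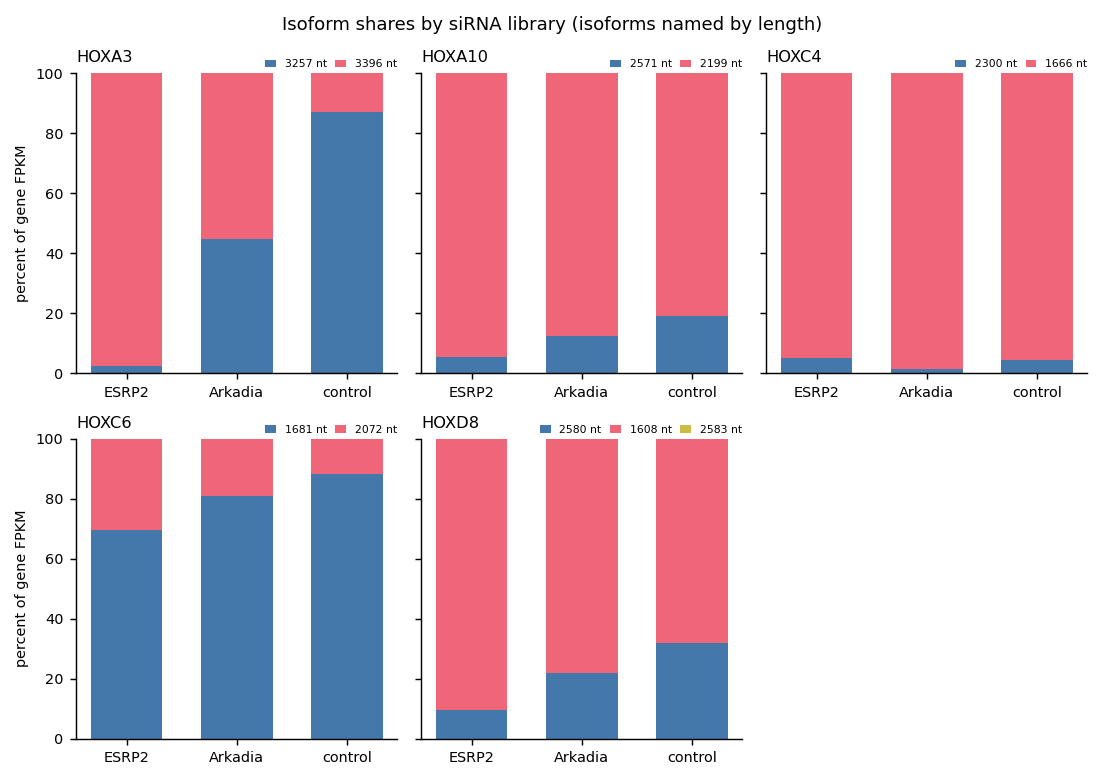
Percent of a gene's FPKM in each isoform, named by its length, in the libraries with ESRP2, Arkadia and control siRNA for 5 HOX genes; the isoforms are estimates of the authors' software and carry no error bars here. The 3257-nt isoform of HOXA3 took 2.65% with ESRP2 siRNA, 44.7% with Arkadia siRNA and 87.0% with control siRNA.

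Sequences before the start were available from RefSeq (GRCh38.p14, a later build than that of the FPKM tables) for 20 of the 39 members, as 26 different sequences. They are shown for starts that the isoform values turn on and for members that stood out in level. HOXA3 is given at the start that coincides with the 3257-nt isoform in GENCODE 29 on the same build. HOXA10 is given at the start 14 bases from that of the 2571-nt isoform and at its other start. That other start lies 400 bases from the GENCODE 29 start of the 2199-nt isoform, so its run does not adjoin the latter. HOXC4 with HOXC5 is given at 1 start, 43 bases from that of the 2300-nt HOXC4 isoform. HOXA2 and HOXD4 differed between the libraries, HOXD13 was the highest HOXD gene, and HOXB1 had no reads. Each run holds the 250 bases before the start, read 5′ to 3′ on the gene's strand, and capitals mark any match, on either strand, to the TATA box TATAAA, the CCAAT box CCAAT or the HOX-PBX site TGATTNAT.
HOXA3 (chr7:27119596-27119845, minus strand): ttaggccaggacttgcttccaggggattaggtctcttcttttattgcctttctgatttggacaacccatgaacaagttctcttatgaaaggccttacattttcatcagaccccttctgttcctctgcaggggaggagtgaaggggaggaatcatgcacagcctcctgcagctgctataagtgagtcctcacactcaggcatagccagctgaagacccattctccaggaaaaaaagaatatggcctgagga
HOXA10, 2571-nt isoform (chr7:27174321-27174570, minus strand): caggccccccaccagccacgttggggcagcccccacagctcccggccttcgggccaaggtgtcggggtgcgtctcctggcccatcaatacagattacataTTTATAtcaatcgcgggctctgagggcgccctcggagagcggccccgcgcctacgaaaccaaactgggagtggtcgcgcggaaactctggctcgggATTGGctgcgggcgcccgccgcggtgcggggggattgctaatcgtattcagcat
HOXA10, other start (chr7:27179862-27180111, minus strand): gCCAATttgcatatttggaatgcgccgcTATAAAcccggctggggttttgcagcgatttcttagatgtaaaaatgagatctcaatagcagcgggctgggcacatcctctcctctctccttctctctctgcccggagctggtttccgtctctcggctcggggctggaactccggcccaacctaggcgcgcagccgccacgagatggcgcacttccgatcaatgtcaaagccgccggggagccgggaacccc
HOXC4 and HOXC5 (chr12:54016638-54016887, plus strand): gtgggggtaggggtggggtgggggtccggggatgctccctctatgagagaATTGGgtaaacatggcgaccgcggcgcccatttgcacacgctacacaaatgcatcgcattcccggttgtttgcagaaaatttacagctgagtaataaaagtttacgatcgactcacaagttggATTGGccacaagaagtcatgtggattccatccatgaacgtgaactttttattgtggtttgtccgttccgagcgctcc
HOXA2 (chr7:27102684-27102933, minus strand): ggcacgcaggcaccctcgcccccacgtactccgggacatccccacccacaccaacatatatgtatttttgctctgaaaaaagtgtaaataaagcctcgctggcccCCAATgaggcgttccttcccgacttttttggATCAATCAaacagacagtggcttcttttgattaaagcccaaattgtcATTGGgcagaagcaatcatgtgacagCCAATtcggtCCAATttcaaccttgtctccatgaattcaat
HOXD4 (chr2:176151300-176151549, plus strand): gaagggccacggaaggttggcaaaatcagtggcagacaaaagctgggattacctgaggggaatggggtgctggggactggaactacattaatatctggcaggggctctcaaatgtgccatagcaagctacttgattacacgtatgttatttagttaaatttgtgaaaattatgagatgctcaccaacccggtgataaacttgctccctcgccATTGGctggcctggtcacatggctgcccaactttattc
HOXD13 (chr2:176092471-176092720, plus strand): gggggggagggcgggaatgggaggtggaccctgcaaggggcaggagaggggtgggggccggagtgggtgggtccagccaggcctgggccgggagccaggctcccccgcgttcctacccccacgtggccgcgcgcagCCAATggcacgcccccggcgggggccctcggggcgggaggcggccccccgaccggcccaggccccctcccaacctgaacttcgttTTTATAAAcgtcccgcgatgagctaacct
HOXB1 (chr17:48531012-48531261, minus strand): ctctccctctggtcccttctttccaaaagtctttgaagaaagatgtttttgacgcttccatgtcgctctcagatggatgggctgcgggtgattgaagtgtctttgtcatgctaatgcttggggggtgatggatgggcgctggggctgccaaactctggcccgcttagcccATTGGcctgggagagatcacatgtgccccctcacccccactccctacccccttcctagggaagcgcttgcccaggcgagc

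In windows of 250 bases before and 50 after the start, a CCAAT box stood in 17 of the 26 HOX sequences (65.4%), against 34.6% of all 35116 sequences in the table. The 26 sequences came from 20 members and HOXA3 alone gave several, so shares and medians here are over windows and not over genes. A TATA box stood in 5 (19.2%, against 11.5%) and the HOX-PBX site in 2 (7.69%, against 2.82%), those of HOXA2 and HOXD11. In HOXD13 a TATA match lies shortly before the start and overlaps its own reverse complement. HOX windows held a median of 22.5 CpG dinucleotides, against 14 over the table. The HOXA3 window at the start shown above held 0, where the other HOXA3 windows held from 6 to 29. The HOXD4 window held 4, whereas HOXB1, without reads, had 11. These are letter matches and not measured binding.

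Other transcripts inside the clusters were mostly antisense genes and microRNA rows. Between the first and last HOX gene of each cluster lay 17 further rows, of which 8 were at 0 in every library and 7 were compared. With ESRP2 siRNA 0 were higher and 2 lower at 1.5-fold, and with Arkadia siRNA 2 were higher and 0 lower, against the shares of all genes given above. HOXB-AS3 had 15.6 FPKM (0 to 38.0) with ESRP2 siRNA, 44.6 (0.176 to 109.0) with Arkadia siRNA and 41.9 (1.01 to 90.4) with control siRNA, next to HOXB5 and HOXB6 in the same locus. HOXB-AS5 had 0.820 FPKM with ESRP2, 3.96 with Arkadia and 2.34 with control siRNA. The row HOXA-AS5, which is HOXA11-AS in RefSeq by its accession, had 24.8 FPKM with ESRP2, 56.3 with Arkadia and 31.5 with control siRNA, beside HOXA11. HOXD-AS2 had 0.910 FPKM with ESRP2, 2.72 with Arkadia and 1.26 with control siRNA. Any use of strand in the counting is not given in the sources used here, so reads of a gene and of its antisense partner cannot be told apart. HOTAIR, the long non-coding RNA of the HOXC cluster, had 4.19 FPKM with ESRP2, 4.09 with Arkadia and 4.10 with control siRNA. HOTAIRM1, a long non-coding RNA of the HOXA cluster, had 14.8 FPKM with ESRP2, 14.2 with Arkadia and 16.0 with control siRNA. Both were nearly level across the libraries and were picked after their values were seen.

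Of the 16 nearest rows outside the clusters 7 were compared. With ESRP2 siRNA 0 of these were higher and 2 lower, where 19.9% of all genes were higher and 11.4% lower. With Arkadia siRNA 1 was higher and 1 lower, where 9.81% of all genes were higher and 11.8% lower. ATP5G2, a mitochondrial ATP synthase gene beside HOXC, had 56.0 FPKM with ESRP2, 174.0 with Arkadia and 130.2 with control siRNA. KIAA1715, on the posterior side of HOXD, had 9.98 FPKM with ESRP2, 4.02 with Arkadia and 7.05 with control siRNA. Both were named after their values were seen.

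The partners and regulators of HOX genes were counted on lists chosen by function, and their counts are read against the shares of all genes at 1.5-fold given above. Of 10 TALE cofactors, which bind DNA with HOX proteins, 1 was higher and 2 were lower with ESRP2 siRNA and 1 was higher and 0 lower with Arkadia siRNA, with medians of -0.13 with ESRP2 siRNA and 0.19 with Arkadia siRNA. PBX2 had 14.0 FPKM with ESRP2 siRNA, 32.3 with Arkadia siRNA and 27.3 with control siRNA. PBX3 had 12.1 FPKM with ESRP2, 17.4 with Arkadia and 19.5 with control siRNA, and the MEIS family member MEIS3 had 2.85 FPKM with ESRP2, 6.88 with Arkadia and 4.06 with control siRNA. PBX2 and PBX3 were both lowest with ESRP2 siRNA.

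Of 30 Polycomb genes, whose products repress silent HOX genes, 8 were higher and 7 lower with ESRP2 siRNA and 1 was higher and 6 were lower with Arkadia siRNA. Their medians were 0.21 with ESRP2 siRNA and 0.01 with Arkadia siRNA. After GC subtraction 4 were higher and 6 lower with ESRP2 siRNA, so the larger side changed. EZH2, the methyltransferase of the complex PRC2, had 69.5 FPKM with ESRP2 siRNA, 38.3 with Arkadia siRNA and 32.0 with control siRNA. Its partner AEBP2 had 13.1 FPKM with ESRP2, 4.27 with Arkadia and 5.36 with control siRNA. BMI1, a subunit of PRC1, had 17.1 FPKM with ESRP2, 12.97 with Arkadia and 30.6 with control siRNA. RBBP4, a histone-binding subunit, had 109.3 FPKM with ESRP2, 33.7 with Arkadia and 72.1 with control siRNA.

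Of 18 trithorax and boundary genes, 3 were higher and 1 lower with ESRP2 siRNA and 1 was higher and 1 lower with Arkadia siRNA, with medians of 0.29 with ESRP2 siRNA and -0.21 with Arkadia siRNA. CTCF, which marks boundaries inside the clusters, had 43.4 FPKM with ESRP2 siRNA, 29.6 with Arkadia siRNA and 23.1 with control siRNA. MEN1, a subunit of the trithorax complexes, had 45.3 FPKM with ESRP2, 77.4 with Arkadia and 42.5 with control siRNA. The histone methyltransferase gene MLL2 had 2.80 FPKM with ESRP2, 6.98 with Arkadia and 5.73 with control siRNA. DPY30, another subunit, had 169.6 FPKM with ESRP2, 64.2 with Arkadia and 96.3 with control siRNA. After GC subtraction only 1 of these 18 genes passed with ESRP2 siRNA and 0 with Arkadia siRNA.

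Retinoic acid switches on anterior HOX genes in embryonal cells. Of 13 of its pathway genes compared (17 listed), 2 were higher and 3 lower with ESRP2 siRNA and 3 were higher and 0 lower with Arkadia siRNA, with medians of 0.03 with ESRP2 siRNA and 0.24 with Arkadia siRNA. CRABP2, a retinoic acid carrier, had 26.2 FPKM with ESRP2 siRNA, 59.5 with Arkadia siRNA and 31.6 with control siRNA. Among the receptors RXRB had 17.4 FPKM with ESRP2, 31.9 with Arkadia and 16.8 with control siRNA. RARA had 1.73 FPKM with ESRP2, 6.61 with Arkadia and 3.86 with control siRNA, and RARG had 4.84 FPKM with ESRP2, 10.7 with Arkadia and 9.29 with control siRNA. After GC subtraction 0 of the 13 passed with ESRP2 siRNA.

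Of 21 homeobox genes outside the clusters 11 could be compared. With ESRP2 siRNA 0 were higher and 1 lower and with Arkadia siRNA 1 was higher and 0 lower, with medians of -0.38 with ESRP2 siRNA and 0.03 with Arkadia siRNA. After GC subtraction these calls changed sides, with 1 higher and 0 lower with ESRP2 siRNA and 0 higher and 1 lower with Arkadia siRNA, and the medians were -0.040 with ESRP2 siRNA and -0.26 with Arkadia siRNA. DLX1 had 7.33 FPKM with ESRP2 siRNA, 9.65 with Arkadia siRNA and 12.3 with control siRNA. GBX2 had 0.985 FPKM with ESRP2, 3.26 with Arkadia and 1.43 with control siRNA. Of 14 kidney development genes compared (21 listed), 1 was higher and 3 were lower with ESRP2 siRNA and 2 were higher and 1 lower with Arkadia siRNA, with medians of -0.14 with ESRP2 siRNA and -0.02 with Arkadia siRNA. WNT11, a signal of the ureteric bud tip, had 2.85 FPKM with ESRP2, 9.57 with Arkadia and 4.21 with control siRNA. ITGA8, an integrin of the kidney mesenchyme, had 0.974 FPKM with ESRP2, 1.61 with Arkadia and 2.45 with control siRNA. PAX2, a kidney transcription factor, had 0.835 FPKM with ESRP2, 2.13 with Arkadia and 2.13 with control siRNA, and SIX4 had 6.73 FPKM with ESRP2, 3.08 with Arkadia and 5.72 with control siRNA. The medians of all 6 lists lay inside 1.5-fold, and the part of these genes in the values of the HOX genes was not tested.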

How the data were processed

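Polyadenylated RNA of HEK293T cells was read on an Ion sequencer, per the labels' protocols, in 3 libraries with 1 per siRNA. The FPKM values were made by the authors on hg19 with Cuffdiff, Cufflinks 2.1.1, Bowtie2 2.1.0 and TopHat2 2.0.10, per the submitters' processing notes, and were deposited for 23284 genes and 41138 isoforms with a lower and an upper bound. Not given in the sources used here were the scaling between libraries, the Cuffdiff version and whether counting used strand. Bounds from unreplicated libraries hold modelled, not measured, spread.

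From these values, log2 ratios used a pseudocount of 1 FPKM, over genes with status OK, a mean FPKM of at least 1 and an isoform of 300 nt or longer (11870 genes, 35 members). A call was 1.5-fold, with no p-value. FPKM of genes with 1 isoform and a locus of their own came in steps of 1 read: 99.97% to 100% of values up to 100 reads were whole within 0.05. Exact 95% intervals of read ratios (Clopper-Pearson, rescaled) cover counting error only. Raw depth is unknown, since the reads are on the authors' scale. GC content was that of the GENCODE 29 transcript with the same RefSeq accession or symbol, for 99.1% of genes compared. Start coordinates are 1-based.

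The HOX genes and the lists were chosen with earlier results of these data known. Genes of the siRNA target and cell type check were named apart from the rule that follows. Named genes were all HOX genes at 1 FPKM or more in any library and, outside that rule and after their values were seen, HOXB1, HOXC12, HOXD1 and HOXD12, and, per list or among rows inside the clusters, at most 4 past 1.5-fold with the largest log2 ratio against control. Calculations used Python 3.11.15, pandas 2.3.3 and scipy 1.17.1, and the scripts were tested on simulated data. Alternatives were other pseudocounts, filters, scalings and fold sizes, separate intervals, the isoform table, and subtraction of GC or length medians. Values of 1 HOX gene and 1 cofactor gene are not reported here singly, and the counts, medians and sums include them.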

Additional observations from a re-analysis of the deposited data

How the results depend on the processing

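No paired analysis was possible because each siRNA had 1 library. Of 111 values recomputed under alternatives, 86 kept their direction and stayed within a set tolerance, 21 moved and 4 turned their direction. The tolerance was 1.5-fold for a count, 0.1 for a median log2 ratio and 10% for a summed FPKM. For the values below, the cause was not tested unless the setting itself leaves fewer genes or asks for a larger difference. The median log2 ratio of HOX genes with ESRP2 siRNA, -0.29, was -0.43 after rescaling to the upper quartile, which moved the median of all genes to -0.03, and -0.15 after GC subtraction. Its count of 7 was 2 at 2-fold, 0 with separate intervals and 4 over members with 1 isoform and a locus of their own. For Arkadia siRNA the median of 0.17 was 0.34 at a mean FPKM of at least 5 and -0.044 after GC subtraction, and the count of 6 was 2 at 2-fold, 0 with separate intervals and 3 after length subtraction. Between the knockdowns the median of 0.46 was 0.59 by the median of ratios and 0.60 at the upper quartile, where the median of all genes was 0.00 and 0.01, and 0.14 after GC subtraction. Both scalings gave 18 higher members and 1 lower. Shares of all genes past 1.5-fold were not computed for the scalings, for length subtraction or for members with a locus of their own. Counts under those settings therefore have no share of all genes to be read against. The count of 13 was 6 at 2-fold and 2 with separate intervals. After GC subtraction, a setting chosen after seeing the data for the lists, counts with ESRP2 siRNA were 1 for the trithorax and boundary genes in place of 4, 1 for kidney development in place of 4 and 0 for retinoic acid in place of 5. With Arkadia siRNA they were 0 for the TALE cofactors in place of 1, 4 for Polycomb in place of 7, 0 for trithorax and boundary genes in place of 2 and 1 for kidney development in place of 3. The side with more calls changed for 3 counts: Polycomb with ESRP2 siRNA, 10 in place of 15, and homeobox genes outside the clusters with ESRP2 siRNA and with Arkadia siRNA, 1 in each case in place of 1. The restriction to members with a locus of their own was also chosen after seeing the data. With 9740000 to 13420000 reads per library, members with few reads, such as HOXA2 with 12 in the Arkadia siRNA library, had the larger counting error. The authors' intervals were wider for members that share a locus, with a median extent of 78.1% of the FPKM to either side against 51.1% for members with 1 isoform and a locus of their own.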
